A study of Mus musculus with 26 samples.

Results

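The subject here is 41 genes of the contractile apparatus of skeletal muscle, measured on arrays of mouse knee joint tissue. They were taken from a given list of symbols as the probe sets annotated to a single listed symbol, and where a gene had several, the probe set with the highest mean log2 signal over the 26 arrays stood for it. All 41 genes had such a probe set, of 18194 genes with a probe set of their own on the array. By the fibre type in which each is best known, 14 were grouped as fast, 9 as slow, 4 as developmental and 14 as common to all fibres. The mean log2 signal of 33 of them lay above the median of all deposited values, 7.93, and these 33 entered the tests. The other 8, which were Tnni1, Myl2, Casq2, Myoz2, Myh3, Myh8, Myog and Myod1, are given by their levels.

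The study followed osteoarthritis in male C57BL/6 mice after destabilisation of the medial meniscus (DMM), an operation that cuts the ligament holding the inner meniscus to the tibia. The 9 groups were unoperated mice at time 0, aged 12 weeks, and mice operated at 12 weeks of age with DMM or sham surgery and killed 2, 4, 8 or 16 weeks later, at 14, 16, 20 or 28 weeks of age. RNA of 3 mice was pooled for each array, with 3 pools per group and 2 in the DMM 2-week group, where the RNA of another pool was not intact enough. The tissue block held cartilage and subchondral bone of the medial tibial plateau and femoral condyle, meniscus, ligaments and capsule with synovium, and the sham and DMM mice were operated in waves. Skin and muscle outside the joint were to be removed at dissection, and each value is an average over 3 animals, so that differences between single mice cannot be seen.

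A skeletal muscle fibre shortens when myosin heads of the thick filament pull on actin of the thin filament, and calcium starts this by binding the troponin complex. Most parts of this machine come as isoforms from separate genes. Fast fibres use fast myosins, troponins and calcium pumps and fatigue early, slow fibres use another set and rely on oxygen, and embryonic and perinatal myosins are made in developing or regenerating fibres. Muscles cross the knee and attach close to its capsule. In RNA of a whole block, fewer muscle fibres and less muscle RNA per fibre cannot be told apart.

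Of the member genes, 33 had a promoter entry in RefSeq, with 40 promoters in all (GRCm38.p6). In the 250 bases before the start, the E-box, CANNTG on both strands, the letters bound by MyoD and its relatives, was present in 90.0% of the member promoters against 66.2% of all 32851 promoters. The motif of MEF2, a partner of these factors, was present in 17.5% against 2.9%, and the CArG box bound by serum response factor in 10.0% against 1.5%. A match describes letters only. The windows of 3 adult fast myosin genes are shown because these neighbours on chromosome 11 parted from each other within a pool, as described below. Each is on the plus strand and is printed with E-boxes, MEF2 and CArG motifs in capitals. The Myh4 window, chr11:67237562-67237811, held 2 E-boxes, 1 MEF2 motif and 1 CArG box. The Myh1 window, chr11:67199852-67200101, held 1 MEF2 motif with the same letters as that of Myh4. The Myh2 window, chr11:67170777-67171026, held none of the 3 motifs as spelled here.
Myh4: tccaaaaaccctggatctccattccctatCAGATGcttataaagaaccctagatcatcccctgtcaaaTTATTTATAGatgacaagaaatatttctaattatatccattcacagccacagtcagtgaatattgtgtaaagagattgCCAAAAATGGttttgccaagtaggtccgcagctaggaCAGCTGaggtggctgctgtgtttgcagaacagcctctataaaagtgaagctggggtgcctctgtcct
Myh1: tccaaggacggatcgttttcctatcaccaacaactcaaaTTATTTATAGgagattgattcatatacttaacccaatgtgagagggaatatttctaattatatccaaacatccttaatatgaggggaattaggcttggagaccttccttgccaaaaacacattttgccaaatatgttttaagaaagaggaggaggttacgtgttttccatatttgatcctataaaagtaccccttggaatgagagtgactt
Myh2: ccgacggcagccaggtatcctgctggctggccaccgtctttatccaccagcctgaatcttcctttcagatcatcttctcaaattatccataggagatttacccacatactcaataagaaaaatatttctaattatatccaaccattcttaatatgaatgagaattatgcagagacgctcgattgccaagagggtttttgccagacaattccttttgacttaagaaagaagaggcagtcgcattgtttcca

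The arrays themselves were alike in scale. Median signals of the 26 arrays lay between 7.90 and 7.95 on the log2 scale. The 3′ minus 5′ signal of the Gapdh control probe sets, a sign of RNA degradation, lay between 0.21 and 0.56, and that of actin between 0.56 and 1.14. The label of the members as skeletal muscle genes was set against markers of the other muscle types. The heart genes Myh6, Nppa, Nppb, Tnnt2, Tnni3 and Myl7 stayed between 5.68 and 7.22 in every pool, with Myl4, which is also made in embryonic skeletal muscle, between 8.29 and 9.73. The mean over the 7 heart markers, relative to the mean of the time 0 pools, ranged from -0.14 to 0.11. For 7 smooth muscle markers it ranged from -0.25 to 0.39. The median over the 14 fast members, a different summary, ran from -1.69 to 1.90. By these summaries neither other muscle type moved over a like range.

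The contractile genes were among the most variable transcripts between pools of one and the same group. The pooled SD within groups had a median of 0.65 over the members, against 0.12 over all tested probe sets, and 30 of 41 members lay above the 95th percentile of all tested probe sets, 0.29. The spread was not shared evenly. Its median was 0.79 for fast and 0.72 for common genes but 0.21 for slow and 0.19 for developmental genes, and all 14 fast genes lay above that percentile against 3 of 9 slow genes. The fast genes covered a median range of 3.67 log2 units over the 26 pools, the common genes 3.03, the slow genes 1.13 and the developmental genes 0.97. Tnni1, Myl2, Casq2, Myoz2 and all developmental genes had mean signals under 7.93, the cut for testing. There background can make up much of the signal, so a small spread is uncertain. For Myl3, the probe set used ran from 7.84 to 8.96, and a dimmer one ran from 6.15 to 8.67.

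**Figure D1:**
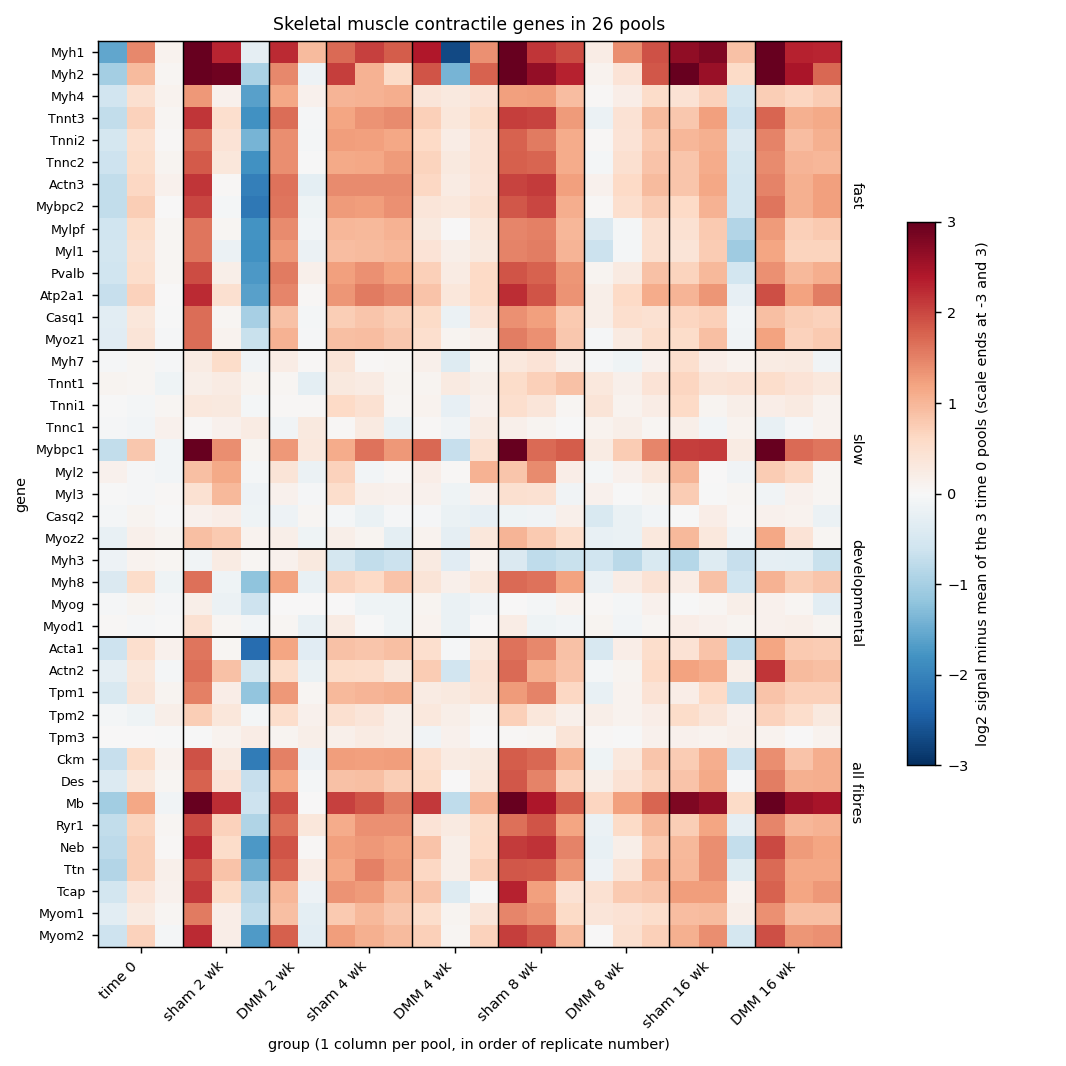
Log2 signal of the 41 genes (rows) in the 26 pools (columns), minus the mean of the 3 time 0 pools, with lines between groups and between gene classes, and colours ending at -3 and 3. Fast and common genes move together within a pool, from dark red in sham 2-week pool 1 to blue in sham 2-week pool 3, while most slow genes stay pale.

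Both ends of this range came from the same group. Sham 2-week pool 1 gave the highest value of 20 of the 41 genes and sham 2-week pool 3 the lowest value of 25. Ckm, the creatine kinase of muscle that rebuilds ATP at the filaments, read 13.67 in the first, 12.02 in pool 2 and 9.66 in the third, a 16.1-fold range. These 2 pools were also the extremes of Tnnt3 and Tnnc2, fast troponins T and C, at 13.23 and 9.25 and at 14.09 and 10.43. The sham 4-week pools stood at the other end. Their Ckm signals were 13.00, 12.98 and 13.00, and those of Actn3, the actinin that anchors thin filaments in fast fibres, 11.70, 11.70 and 11.71. The median over all 41 genes, relative to time 0, was 1.65, 0.27 and -0.88 in the sham 2-week pools and 0.93, 0.96 and 0.91 in the sham 4-week pools. Sham 2-week pool 3 also had the lowest value of the mean over 3 erythroid markers, -0.68, whose range over all pools ended at 0.41. The 3′ minus 5′ signal of actin was 0.61, 0.84 and 0.91 in the sham 2-week pools. The part of blood, of any other tissue or of RNA quality in these differences was not tested.

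Among the fast genes, Myh1, the type IIx myosin heavy chain, had the widest range, 6.41 log2 units between 7.50 and 13.91. Folds between pools are of the array signal, and where the low end lies under the filter value of 7.93, as for Myh1, Myh2, Mybpc2, Mybpc1, Myh8, Actn2, Neb and Myom2, background can make up much of it, so those folds are uncertain. At time 0 it read 8.66, 11.66 and 10.32. The sham pools read 13.53, 12.51 and 9.94 at 2 weeks, 11.91, 12.27 and 12.03 at 4 weeks, 13.74, 12.37 and 12.18 at 8 weeks and 12.87, 13.03 and 11.09 at 16 weeks. Sham signals lay above all 3 time 0 pools at 4 and 8 weeks and overlapped them at 2 and 16 weeks. In DMM joints Myh1 read 12.46 and 11.17 at 2 weeks, 12.63, 7.50 and 11.59 at 4 weeks, 10.44, 11.61 and 12.12 at 8 weeks and 13.91, 12.54 and 12.51 at 16 weeks. The DMM 8-week pools lay below the sham 8-week pools without overlap, and the other weeks overlapped.

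The 7.50 of DMM 4-week pool 2 was the lowest Myh1 signal of all 26 pools and did not come from a pool poor in every muscle transcript. Myh4, the type IIb myosin of the fastest fibres, read 13.17, 13.11 and 13.21 in the DMM 4-week pools. Myh2, the type IIa myosin of fast oxidative fibres, read 9.71, 6.43 and 9.60 in the same pools, and its 6.43 was likewise the lowest of the series. The second probe set of Myh1 above the filter gave 7.54 in that pool, next to 7.50 from the first. Mb, Mybpc1 and Actn2 were low there too, at 8.34, 7.16 and 6.83, while Ckm read 12.24, 12.00 and 12.04 in the 3 pools. Relative to time 0, the difference between Myh1 and Myh4 was -3.02 in that pool and 2.05 and 0.98 in its partners. The mean over 3 erythroid markers was -0.51 in it, against 0.12 and -0.02 in the others.

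**Figure D2:**
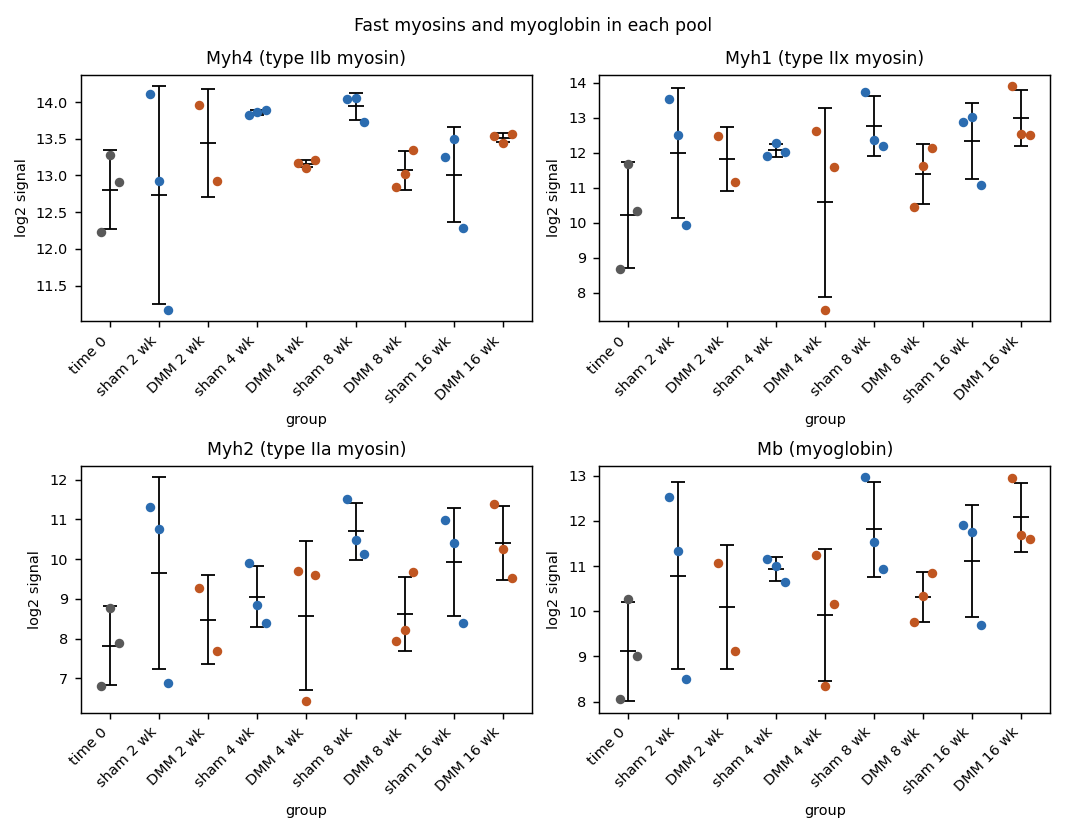
Log2 signal of 3 fast myosin heavy chains and of myoglobin in each pool, by group (grey, time 0; blue, sham; orange, DMM), with black bars for the group mean ± SD, n = 3 pools and 2 for DMM at 2 weeks. In DMM 4-week pool 2, Myh1 and Myh2 fall to 7.50 and 6.43 while Myh4 stays at 13.11; each panel has its own axis, which does not start at 0.

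Myh4 itself read 12.23, 13.28 and 12.91 at time 0. The sham pools read 14.12, 12.93 and 11.17 at 2 weeks, 13.82, 13.86 and 13.89 at 4 weeks, 14.04, 14.06 and 13.73 at 8 weeks and 13.25, 13.50 and 12.29 at 16 weeks. The other DMM values were 13.96 and 12.93 at 2 weeks, 12.84, 13.02 and 13.35 at 8 weeks and 13.53, 13.45 and 13.56 at 16 weeks. DMM pools lay below all sham pools at 4 and 8 weeks and overlapped them at 2 and 16 weeks. The narrowest range of a fast gene, 5.06-fold, was that of Myoz1, a Z-disc protein that binds calcineurin. Myoz1 read 9.81, 10.55 and 10.12 at time 0 and its sham signals were 11.84, 10.26 and 9.50 at 2 weeks, 11.07, 11.08 and 10.98 at 4 weeks, 11.69, 11.53 and 10.98 at 8 weeks and 10.70, 11.06 and 10.05 at 16 weeks. Its DMM signals were 11.21 and 10.13 at 2 weeks, 10.66, 10.24 and 10.30 at 4 weeks, 10.13, 10.44 and 10.69 at 8 weeks and 11.37, 10.85 and 10.94 at 16 weeks. As for Myh4, the DMM pools lay below all sham pools at 4 and 8 weeks.

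The other fast genes ranged between 6.35-fold, for the calcium store protein Casq1, and 18.6-fold, for the fast actinin Actn3, with 5.08 log2 units for Myh2. Between them lay the troponins Tnnt3, Tnni2 and Tnnc2 (15.7-fold, 8.93-fold and 12.6-fold) and the myosin-binding protein Mybpc2 (17.8-fold). The light chains Mylpf and Myl1 covered 10.6-fold and 10.7-fold, the calcium buffer Pvalb 12.9-fold and the calcium pump Atp2a1 14.7-fold. Each of the 14 had its lowest value in sham 2-week pool 3 except Myh1 and Myh2, whose lowest value was in DMM 4-week pool 2.

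Of the genes common to all fibres, Mb, the oxygen store myoglobin, varied most, 30.1-fold. It read 8.06, 10.26 and 9.01 at time 0. The sham pools read 12.53, 11.33 and 8.50 at 2 weeks, 11.16, 11.00 and 10.64 at 4 weeks, 12.97, 11.54 and 10.93 at 8 weeks and 11.91, 11.74 and 9.69 at 16 weeks. The DMM pools read 11.06 and 9.11 at 2 weeks, 11.24, 8.34 and 10.16 at 4 weeks, 9.76, 10.34 and 10.85 at 8 weeks and 12.96, 11.68 and 11.59 at 16 weeks. DMM lay wholly below sham at 8 weeks only. Acta1, the actin of the muscle thin filament, covered 15.0-fold, and the giant proteins Ttn and Neb, which span the sarcomere and the thin filament, covered 10.6-fold and 15.5-fold. The M-band proteins Myom1 and Myom2 covered 4.95-fold and 15.3-fold, the calcium release channel Ryr1 7.38-fold, the Z-disc proteins Tcap and Actn2 9.07-fold and 6.65-fold, and the filament protein Des 5.91-fold.

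The tropomyosins, which lie along the thin filament and are also made outside skeletal muscle, differed by gene and by probe set. On the brightest probe sets Tpm1 covered 6.46-fold but Tpm2 1.82-fold and Tpm3 1.39-fold, the smallest range of all members. Tpm3 read 13.17, 13.16 and 13.16 at time 0, 13.14 to 13.54 over the 12 sham pools and 13.06 to 13.34 over the 11 DMM pools. Several probe sets of a gene passed the filter for 12 members, and they did not always move alike. For Tpm1 at 8 weeks, the difference between DMM and sham was -1.03 on the brightest probe set and 0.06 on both others. For Mb it was -1.50 on the brightest and 0.11 on the other. Tpm2 covered 0.87 log2 units on the brightest probe set and 1.61, 1.20 and 2.63 on the others. In that order its 8-week differences were -0.24, -0.74, -0.44 and -1.41. Tpm3 covered 0.48 log2 units on the brightest probe set and up to 1.28 on another, with 8-week differences of -0.11 and -0.50. The other Tpm1 probe sets above the filter covered only 0.62 and 0.44. Probe sets of Tpm1 and Tpm3 were mixed in sign in all 4 weeks, those of Mb at 8 and 16 weeks and those of Ckm at 2 weeks, and the other 8 genes had a single sign in every week.

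Most slow genes varied little, Mybpc1, Myl2 and Myoz2 being those above the 95th percentile of spread. Mybpc1, the slow myosin-binding protein C, covered 17.1-fold, with its highest value in DMM 16-week pool 1, as Myh1 had. It read 7.12, 8.66 and 7.78 at time 0. Its sham signals were 10.86, 9.25 and 7.94 at 2 weeks, 8.96, 9.48 and 9.16 at 4 weeks, 10.96, 9.55 and 9.67 at 8 weeks and 9.92, 9.95 and 8.09 at 16 weeks. Its DMM signals were 9.16 and 8.17 at 2 weeks, 9.59, 7.16 and 8.32 at 4 weeks, 8.09, 8.62 and 9.32 at 8 weeks and 11.22, 9.55 and 9.46 at 16 weeks. The DMM pools were wholly below the sham pools at 8 weeks. These values are those of the brightest Mybpc1 probe set, with a range of 4.10 log2 units and an 8-week difference of -1.38. Both other probe sets above the filter covered 1.13 and 1.25 log2 units, with 8-week differences of -0.21 and -0.03. The least variable slow gene was Tnnc1, the troponin C of slow fibres and heart, between 9.43 and 9.93 over all pools. Its values were 9.60, 9.55 and 9.78 at time 0, 9.45 to 9.92 over the sham pools and 9.43 to 9.93 over the DMM pools, with no order between the groups. Myh7, the slow myosin heavy chain, stayed between 7.48 and 8.40. The light chains Myl2 and Myl3 covered 3.04-fold and 2.18-fold, Myoz2 2.73-fold, Tnni1 1.80-fold and Casq2 1.58-fold, and 4 of the 9 slow genes lay below the filter.

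Tnnt1, the slow isoform of troponin T that ties the troponin complex to tropomyosin, was the only tested member called in any of the 16 comparisons, at an adjusted p under 0.05 in limma. At time 0 it read 8.25, 8.22 and 8.05. The sham pools read 8.36, 8.42 and 8.26 at 2 weeks, 8.47, 8.41 and 8.26 at 4 weeks, 8.72, 8.88 and 9.05 at 8 weeks and 8.82, 8.57 and 8.61 at 16 weeks. All 12 sham pools lay above all 3 time 0 pools. The DMM pools read 8.22 and 7.87 at 2 weeks, 8.26, 8.44 and 8.35 at 4 weeks, 8.48, 8.33 and 8.58 at 8 weeks and 8.71, 8.59 and 8.49 at 16 weeks. They were wholly below sham at 2 and 8 weeks, overlapped sham at 4 and 16 weeks, and were wholly above time 0 from 4 weeks on.

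In the sham joints Tnnt1 rose over time 0 by 0.71 ± 0.10 at 8 weeks (log2 difference ± SE, limma adjusted p = 0.00372). The rise to 16 weeks was 0.49 ± 0.10 (adjusted p = 0.00654). In the DMM joints the difference from time 0 was 0.42 ± 0.10 (adjusted p = 0.0370) at 16 weeks. Averaged over the 4 weeks, DMM less sham was -0.20 ± 0.05 (adjusted p = 0.0113), with single weeks at -0.30, -0.03, -0.42 and -0.07, none of them called. Of all tested probe sets 0.937% were called between sham and time 0 at 8 weeks and 5.80% at 16 weeks, 1.73% between DMM and time 0 at 16 weeks and 16.8% for the average. The average stayed called in all 7 alternative fits and without any 1 pool. The sham call at 8 weeks had an adjusted p of 0.0755 when only its 2 groups were fitted, that at 16 weeks one of 0.0626 without sham 16-week pool 1, and the DMM call at 16 weeks was lost without any 1 pool of either group, with adjusted p up to 0.211.

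**Figure D3:**
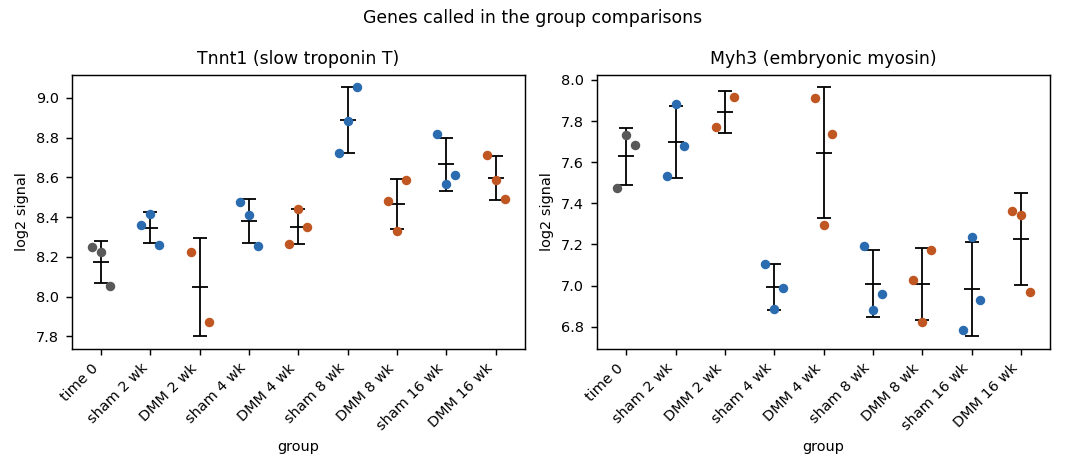
Log2 signal of Tnnt1 and Myh3 in each pool, by group (grey, time 0; blue, sham; orange, DMM), with black bars for the group mean ± SD, n = 3 pools and 2 for DMM at 2 weeks. Tnnt1 is highest in the sham 8-week pools, 8.72 to 9.05, and Myh3 is at 7.29 to 7.91 in the DMM 4-week pools against 6.88 to 7.11 in the sham 4-week pools; the axes do not start at 0.

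The developmental genes were all dim, with mean signals below the filter. Myog and Myod1, transcription factors that turn on the muscle programme, stayed between 6.05 and 6.86 and between 6.77 and 7.45. Myod1 had the smallest range of this class and read 7.03, 6.97 and 6.99 at time 0, 6.86 to 7.45 in sham and 6.77 to 7.14 in DMM pools, which overlapped in every week. The 2 developmental myosins moved differently from each other. Myh8, the perinatal heavy chain, had the widest range, 7.47-fold, and had its lowest value in sham 2-week pool 3, as 12 of the 14 fast genes did. It read 6.67, 7.66 and 6.98 at time 0. In sham joints Myh8 read 8.76, 6.97 and 5.90 at 2 weeks, 7.79, 7.70 and 7.95 at 4 weeks, 8.80, 8.73 and 8.31 at 8 weeks and 7.33, 7.97 and 6.50 at 16 weeks. In DMM joints it read 8.32 and 6.89 at 2 weeks, 7.50, 7.25 and 7.42 at 4 weeks, 6.93, 7.33 and 7.53 at 8 weeks and 8.15, 7.84 and 7.93 at 16 weeks. The DMM pools lay below all sham pools at 4 and 8 weeks, as for Myh4.

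Myh3, the embryonic heavy chain, went another way. It read 7.47, 7.73 and 7.68 at time 0. Its sham signals were 7.53, 7.88 and 7.68 at 2 weeks, 7.11, 6.88 and 6.99 at 4 weeks, 7.19, 6.88 and 6.96 at 8 weeks and 6.79, 7.23 and 6.93 at 16 weeks. The DMM signals were 7.77 and 7.91 at 2 weeks, 7.91, 7.29 and 7.74 at 4 weeks, 7.03, 6.82 and 7.17 at 8 weeks and 7.36, 7.34 and 6.97 at 16 weeks. From 4 weeks on every sham pool lay below time 0, whereas the DMM pools did so only at 8 and 16 weeks. Myh3 was chosen for a test after its values were seen, in a limma fit of all 45101 probe sets. There, DMM less sham at 4 weeks was 0.65 ± 0.15 (log2, limma adjusted p = 0.00773), and the average over the weeks was 0.26 ± 0.08 (adjusted p = 0.0367). Sham less time 0 was -0.64, -0.62 and -0.65 at 4, 8 and 16 weeks, with limma adjusted p of 0.0464, 0.0873 and 0.0192. In the fit with the filter, 19.0% of tested probe sets were called for DMM less sham at 4 weeks and 16.8% for the average. For sham less time 0 it was 1.21%, 0.937% and 5.80% at 4, 8 and 16 weeks. The shares in the fit of all probe sets are not given here. The call between DMM and sham at 4 weeks was lost without sham 4-week pool 2 or with only the 2 groups fitted, and the sham call at 4 weeks was lost without any 1 pool of either group, with the replicate block and with the Gapdh 3′ minus 5′ signal as a covariate. The sham call at 16 weeks was lost with that covariate and without time 0 pool 2 or 3 or sham 16-week pool 1 or 3, with adjusted p up to 0.145, and the average held in 9 of 23 fits that left out 1 pool. Its mean signal over all pools, 7.32, lay below the filter.

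Between DMM and sham joints, none of the tested members was called in any single week. Of all tested probe sets 2.43%, 19.0%, 0.00444% and 0.0622% were called at 2, 4, 8 and 16 weeks. Before adjustment for multiple testing, 1, 1, 10 and 0 of the 33 tested members had a limma p under 0.05 in the same order, against 18.1%, 34.4%, 12.1% and 7.39% of all tested probe sets. The sizes were nevertheless large. The median log2 difference over all 41 members was 0.14, -0.61, -1.03 and 0.58 in that order, whereas over all tested probe sets it stayed between -0.02 and 0.01. Over the fast genes alone it was 0.57, -0.77, -1.22 and 0.72, over the common genes 0.25, -0.66, -1.08 and 0.64, and over the slow genes -0.30, -0.06, -0.31 and -0.07.

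At 8 weeks all 14 fast genes had every DMM pool below every sham pool, and 30 of the 41 members did so, all of them lower, against 6.04% of all probe sets lower without overlap. Fast and common genes moved together within a pool, so counts of members here and below are not counts of independent genes. At 4 weeks it was 24 of 41 lower, 12 of them fast and 11 common, against 14.4%, and 1 gene higher, Myh3, against 14.6%. At 2 weeks a single member did not overlap, Tnnt1, which was lower, and the share of all probe sets was 11.9%. At 16 weeks 3 members, Mybpc2, Pvalb and Tpm1, were higher without overlap against 8.53%, and all 14 fast genes had a difference above 0. Leaving out single pools took the 2-week median from -0.39, without sham pool 3, to 0.72, without sham pool 1. It took the medians at 4, 8 and 16 weeks to between -0.71 and -0.38, between -1.25 and -0.87, and between 0.16 and 0.83.

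**Figure D4:**
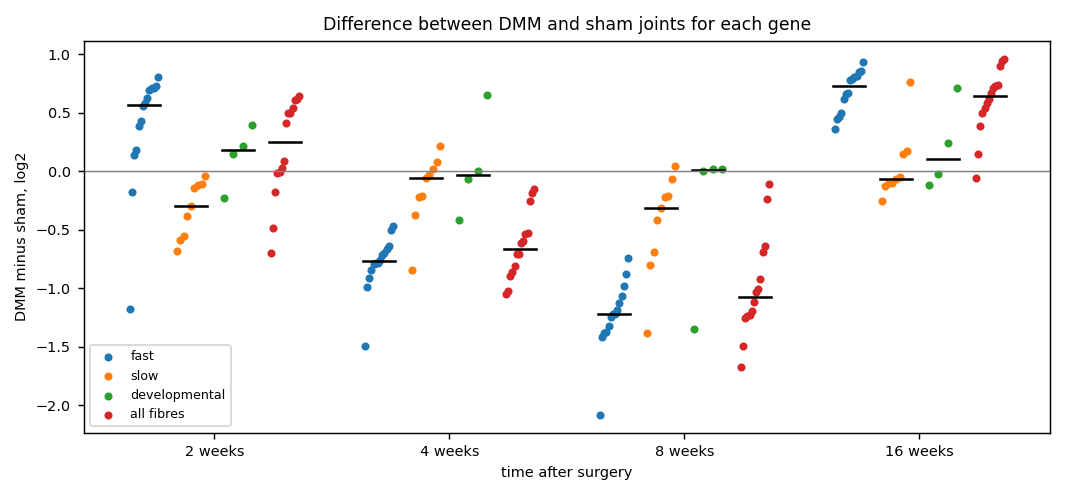
Log2 difference between the mean of the DMM pools and the mean of the sham pools for each of the 41 genes (points, sorted within a class) at each time after surgery, by class, with black lines for the class medians. The fast genes lie mostly above 0 at 2 weeks, below 0 at 4 and 8 weeks and above 0 at 16 weeks, with medians of 0.57, -0.77, -1.22 and 0.72.

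The calls depended on how the spread was estimated. All 9 groups shared 1 estimate per gene, although the SD of Ckm, for example, was 2.01 over the sham 2-week pools and 0.01 over the sham 4-week pools. With only the 4-week sham and DMM pools fitted, 18 members were called lower, among them Myh4, Tnnt3, Tnni2, Tnnc2, Actn3, Acta1, Ckm and Ttn, against 9.19% of all tested probe sets called in that fit. Fitting only the 8-week or only the 16-week groups called none. Taking the difference at 4 weeks less that at 16 weeks, the fast genes had a median of -1.51, and no tested member was called (0% of all tested probe sets), although 1 had a limma p under 0.05 before adjustment, against 12.7% of all tested probe sets. For 4 less 2 weeks and 4 less 8 weeks none was called either, against 0% and 1.59% of all tested probe sets, with 0 and 1 members under that p, against 4.92% and 27.9%.

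Against time 0, most contractile genes read higher at later times in both kinds of joint. In sham joints the median difference over the 41 genes was 0.24, 0.96, 1.32 and 0.41 at 2, 4, 8 and 16 weeks. In DMM joints it was 0.56, 0.31, 0.26 and 0.92. The largest single differences were those of Myh2, with 2.87 in sham joints at 8 weeks, and of Mb, with 2.96 in DMM joints at 16 weeks. The 33 members higher without overlap in sham joints at 8 weeks, of 41, included all 14 fast genes, against 7.69% of all probe sets. The same count in DMM joints at 16 weeks was also 33 of 41 with all 14 fast genes, against 10.5%. In sham joints it was 1 at 2 weeks (5.92% of all probe sets), 29 at 4 weeks (11.0%) and 5 at 16 weeks (16.4%). In DMM joints it was 2 at 2 weeks (19.8%), 1 at 4 weeks (11.2%) and 4 at 8 weeks (9.74%). Sham and DMM comparisons share the same 3 time 0 pools, in which the median over the members, relative to their mean, was -0.53, 0.48 and 0.05. Apart from Tnnt1, no tested member was called in these 8 comparisons. The shares of all tested probe sets called were 1.66%, 1.21%, 0.937% and 5.80% in sham joints and 29.5%, 8.17%, 0.742% and 1.73% in DMM joints. Before adjustment, 29 of the 33 tested members had a limma p under 0.05 in sham joints at 8 weeks and 17 of the 33 did in DMM joints at 16 weeks, against 15.9% and 13.2% of all tested probe sets. Because the members move together within a pool, such counts can repeat the order of the same few pools. With weights for the arrays in the fit, 19 and 7 members were called in these comparisons, against 11.4% and 7.72%.

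Slow and fast isoforms of the same part of the sarcomere were then set against each other within a pool, as the difference of their log2 signals relative to its mean at time 0, for 8 pairs. For troponin T, Tnnt1 minus Tnnt3 was -1.96 in sham 2-week pool 1 and 1.91 in sham 2-week pool 3. At 4 weeks it was -0.88, -1.12 and -1.34 in sham and -0.62, -0.06 and -0.38 in DMM pools, without overlap. Troponins I and C, Myoz2 with Myoz1, Casq2 with Casq1 and the light chains Myl3 with Myl1 also had every DMM pool above every sham pool at 4 weeks. At 8 weeks this held for troponins I and C, the light chains and Myh7 with Myh2. Myl3 minus Myl1, for example, was -1.01, -1.07 and -1.12 in sham and 0.76, 0.03 and -0.39 in DMM pools at 8 weeks. At 2 weeks the DMM pools were wholly lower for Mybpc1 with Mybpc2, and no pair was without overlap at 16 weeks. Averaged over the 4 weeks, DMM less sham of these pairs lay between -0.44, for Mybpc1 with Mybpc2, and 0.62, for Myh7 with Myh2, within 1 pooled SD between pools in every pair. That SD is of single pools and is not the error of the average. The average also joins weeks of opposite sign. Myl3 minus Myl1 had means of 0.55 in sham and -0.52 in DMM pools at 2 weeks, and -1.07 and 0.14 at 8 weeks. The differences within pairs were not tested. Tnni1, Myoz2 and Casq2 lay below the filter and slow genes moved little, so the differences largely repeat those of the fast genes with the sign turned.

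**Figure D5:**
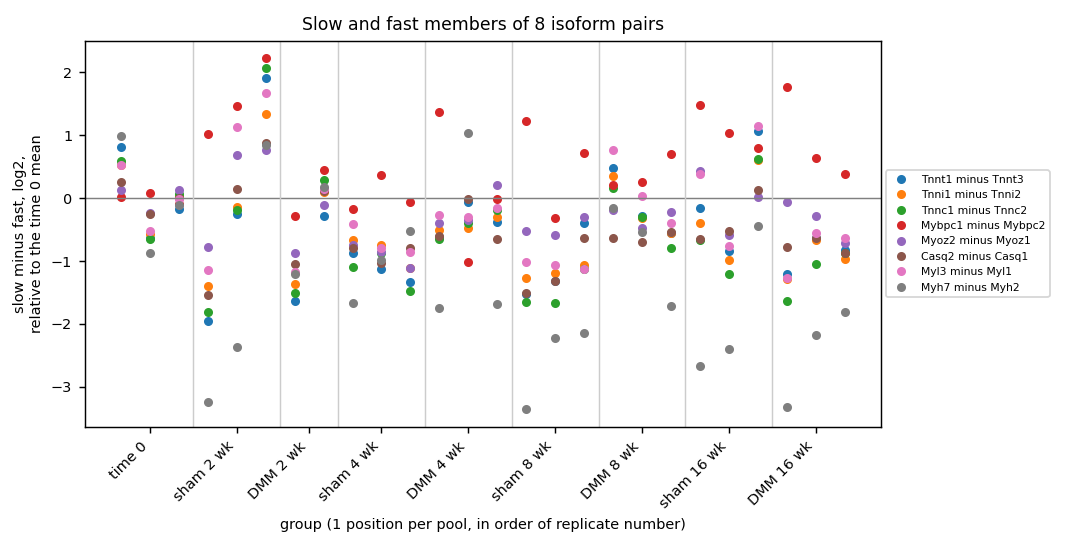
Log2 signal of the slow gene minus that of the fast gene for 8 isoform pairs (colours) in each pool, relative to the mean of the 3 time 0 pools, which is 0. In sham 2-week pool 1 Tnnt1 minus Tnnt3 is -1.96 and in pool 3 it is 1.91; Mybpc1 with Mybpc2 lies apart from the other pairs in most pools.

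Within the fast class itself the isoforms also parted. The differences named next were chosen after the values were seen. Myh1 minus Myh4, relative to time 0, was 2.00, 2.17 and 1.36 in the sham and 1.09 and 0.84 in the DMM 2-week pools, and by 16 weeks 2.21, 2.12 and 1.39 in sham and 2.97, 1.68 and 1.54 in DMM pools. It was above 0 in every operated pool except DMM 4-week pool 2. Mb minus Ckm followed it, at 1.49, 1.95 and 1.47 against 0.43 and 0.16 at 2 weeks and at 2.04, 1.54 and 1.20 against 2.44, 1.71 and 1.39 at 16 weeks. At 2 weeks DMM lay wholly below sham in both differences.

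The wider muscle programme was looked at in 62 further genes in 6 lists, of which 57 had a probe set and 36 passed the filter. The mean over the 57, relative to time 0, ran from -0.42 in sham 2-week pool 3 to 0.98 in sham 2-week pool 1. In these pools 28 and 19 of the 57 were at their lowest and highest. The lists with the widest median ranges were metabolism, with 2.51 log2 units over 13 genes, and turnover, with 2.60 over 2 genes. Eno3, the muscle enolase of glycolysis, ran from 9.22 to 12.94, Pgam2, the muscle phosphoglycerate mutase, from 8.60 to 11.92, and Pfkm, the muscle phosphofructokinase, from 8.91 to 11.61, each between those 2 pools. Of the Z-disc and sarcomere list, Cmya5, Myot and Ldb3 had their lowest value in the same pool 3, at 8.09, 7.44 and 7.90. Of the triad and calcium list, Srl, a calcium-binding protein of the sarcoplasmic reticulum, ran from 7.51 to 10.69, Trdn, which holds the calcium store to the release channel, from 9.98 to 11.78 and Cacnb1, a subunit of the calcium channel that senses voltage, from 9.09 to 10.10. The turnover genes Fbxo32 and Trim63, ubiquitin ligases of muscle wasting, ranged over 1.81 and 3.40 log2 units.

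Over the 10 genes of the neuromuscular junction and membrane, the mean relative to time 0 lay between -0.05 and 0.24 in the pools, though its genes did not move alike. Its brightest members, the acetylcholine receptor subunit Chrnd, the caveolin Cav3 and the sarcoglycan Sgca, covered 0.50, 0.58 and 0.87 log2 units, while Dmd, the dystrophin gene, covered 1.60, from 7.11 to 8.71. The mean over the myogenic list lay between -0.20 and 0.27. Of its genes Cdh15, a cadherin of satellite cells, ran from 8.16 to 8.80 and the regulator Myf6 from 6.52 in sham 2-week pool 3 to 8.31 in sham 2-week pool 1, as many fast genes did. Of the 36 tested genes of all 6 lists, 2 fell in DMM joints against sham joints at 4 weeks in limma, where 19.0% of all tested probe sets were called: Cacnb1 of the triad list by 0.45 (adjusted p = 0.0497) and Slc2a4 of the metabolism list, the insulin-regulated glucose carrier, by 0.73 (adjusted p = 0.0250). Mef2c, a transcription factor that other joint cells also make, fell by 0.50 (limma adjusted p = 0.0157) in sham joints between time 0 and 16 weeks. No other gene of these lists was called in any of the 16 comparisons.

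Markers of other joint tissues moved with time and surgery beside the muscle genes. The mean over 8 chondrocyte markers, relative to time 0, was -0.44 to 0.16 in the sham 2-week pools. It was -1.42 to -0.47 in the sham 8-week and -2.53 to -2.12 in the sham 16-week pools. In the DMM 8-week and 16-week pools this mean was -1.74 to -1.31 and -2.01 to -1.47. Over 6 tendon and ligament markers it was 1.59 and 1.87 in the DMM 2-week, 0.75 to 1.47 in the DMM 4-week and -0.35 to 0.25 in the sham 4-week pools. Over 4 adipocyte markers it was -1.36 to -1.07 in the DMM 4-week and -0.62 to -0.54 in the sham 4-week pools. The sham 2-week pools at both ends of the muscle range had tendon and ligament means of 0.40 and 0.82 and chondrocyte means of -0.44 and 0.16. The part of the make-up of the block in the muscle differences was not tested.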

How the data were processed

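RNA from pools of 3 mice was hybridised to 26 Affymetrix whole-genome mouse arrays. The authors deposited log2 signals of 45101 probe sets after systematic variation normalisation (SVN), and those values were used as deposited; a difference of 1 is a doubling. Of the probe sets, 34958 carried 1 gene symbol, 932 several and 9211 none, by GEO's platform annotation, and no column was left unused. Groups came from the labels. Arrays give no read depth, so their number limits the precision, and whether pools of a group came from separate surgery waves is not given in the sources used here, so p-values measure the spread between pools.

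A linear model with a mean per group was fitted with limma 3.58.1 (R 4.3.3) to the 22513 probe sets whose mean log2 value exceeded 7.93, with empirical Bayes moderation and Benjamini-Hochberg adjustment over all of them, called at an adjusted p under 0.05. Comparisons were DMM against sham and each against time 0 at every week (12), the average of DMM less sham, and 3 differences between weeks. The 41 members, the 62 further muscle genes and the cell type markers (59 of 67 with a probe set) were chosen with earlier results of these data known. The genes described pool by pool were, in each class, those with the widest and the narrowest range, beside called genes and the fast myosins. Promoters and motifs came from RefSeq (GRCm38.p6). Python 3.11.15, pandas 2.3.3 and matplotlib 3.10.9 were used for levels and plots, and the fit was tested on simulated data. Alternatives were no filter, quantile normalisation, the mean over probe sets, array weights, the Gapdh 3′ minus 5′ signal as a covariate, the replicate number as a block, fits of single comparisons and leaving out each pool.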

Additional observations from a re-analysis of the deposited data

Results flagged for a closer look

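The mean difference between DMM and sham joints had opposite signs at different times. Here the median over the genes of a class was taken within each pool first and then averaged over the pools of a group, which differs slightly from the median of the gene differences. Over the fast genes, DMM less sham of this score was -0.76, -1.14 and 0.75 at 4, 8 and 16 weeks, so that it was 1.51 log2 units higher at 16 weeks than at 4 weeks and 1.89 higher than at 8 weeks, and every fast gene was below 0 at 4 and 8 weeks and above 0 at 16 weeks. Over the genes common to all fibres it was -0.67, -1.02 and 0.56, which is 1.23 higher at 16 weeks than at 4 weeks and 1.59 higher than at 8 weeks. These differences between scores were not tested. In both scores the DMM and sham pools lay apart at 4 and 8 weeks but overlapped at 16 weeks. The fast score at 16 weeks was 0.73, 1.06 and -0.52 in sham and 1.45, 0.99 and 1.08 in DMM pools, so the difference rested largely on sham pool 3. For single genes, the contrast of 4 against 16 weeks called no tested member in limma, with 1 at an unadjusted p under 0.05.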

How the results depend on the processing

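With no pool left out, 89 counts of called members stayed equal under an alternative, or stayed above 0 and of similar size. Beyond that, 20 gained calls and 3 lost them. Array weights (0.316 to 4.72, estimated gene by gene because the default estimate did not converge) called 2 members between DMM and sham at 4 weeks and 2 at 8 weeks, 5, 19 and 2 between sham and time 0 at 2, 8 and 16 weeks, 1 and 7 between DMM and time 0 at 8 and 16 weeks, 3 for the average, and 1 each for 4 less 8 and 4 less 16 weeks. With only the groups compared in the fit, it was 18 between DMM and sham at 4 weeks, 1 and 0 between sham and time 0 at 4 and 8 weeks, and 7 between DMM and time 0 at 16 weeks. With no filter, 1 was called between DMM and sham at 4 weeks, 1 and 2 between sham and time 0 at 4 and 16 weeks, 0 between DMM and time 0 at 16 weeks and 2 for the average. The Gapdh covariate gave 0 between DMM and time 0 at 16 weeks and 2 for the average. Of all tested probe sets, array weights called 11.4% between sham and time 0 at 8 weeks and 7.72% between DMM and time 0 at 16 weeks. The fit of only the 4-week sham and DMM groups called 9.19%. No such share is given for the other counts here or for those with the replicate block or pools left out. Those counts describe the processing and are not read as results about the members. In these alternatives the causes were not tested.

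The replicate block gave 1 call between DMM and time 0 at 2 weeks and 2 at 16 weeks, and the counts of tested members elsewhere were those without it, while Myh3, outside those counts, lost its call between sham and time 0 at 4 weeks. Of 11 same-numbered sham and DMM pairs, 6 had a correlation over 0.1 (from -0.19 to 0.556), and the numbers were not taken as a pairing. At 8 weeks, however, same-numbered pairs had 0.475, 0.325 and 0.556 and the other pairs -0.517 to 0.048. Whether the numbers mark a pairing in that week was not tested. Leaving out single pools, the count of called members ran from 0 to 0 between DMM and time 0 at 16 weeks, from 0 to 1 between DMM and sham at 8 weeks, from 0 to 1 between sham and time 0 at 16 weeks, from 0 to 1 for 4 less 8 weeks and from 1 to 3 for the average, the 3 without sham 2-week pool 3. The call of Tnnt1 between DMM and time 0 at 16 weeks was also lost with no filter and with the Gapdh covariate. The number of arrays, 2 or 3 per group, limits the precision.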
